A study of Mus musculus with 9 samples.

Results

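Leukocytes leave the blood through a short set of adhesion molecules, and 9 genes of that set were followed here in mouse lung: the endothelial selectin gene Sele, the endothelial and platelet selectin gene Selp, the selectin ligand gene Selplg, the endothelial immunoglobulin-like ligand genes Icam1, Icam2 and Vcam1, and the leukocyte integrin genes Itgal, Itgam and Itgb2. They were taken by gene symbol from a table of 32114 genes. Each symbol had 1 row except Itgam, which had 2, of which the row with the higher mean was kept. Levels are given as FPKM, which corrects the fragments counted for transcript length and library depth, from RNA-seq of polyadenylated lung RNA. The 9 libraries came from 12-week-old mice in 3 groups of 3. Control mice received saline. LPS mice received bacterial lipopolysaccharide, the endotoxin of Gram-negative bacteria, at 50 µg per mouse. LPS plus PD mice received the same LPS and inhaled PD as an aerosol at 10 mg/mL, and PD is taken to mean panaxadiol, a sapogenin of ginseng in the title of the series. The design text gives 6 animals a group, and the labels do not tie the 3 libraries of a group to separate animals, so the p-values measure the spread between libraries, which may be technical. No source used here gives the strain, the route of LPS or the time of sampling.

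Recruitment of leukocytes proceeds in steps. Selectins on activated endothelium catch passing cells by binding carbohydrate on P-selectin glycoprotein ligand 1, the product of Selplg. The slowed cells then activate beta 2 integrins, which pair the chain from Itgb2 with an alpha chain: with the Itgal product this gives LFA-1, carried by most leukocytes, and with the Itgam product Mac-1, abundant on neutrophils, monocytes and macrophages. Both integrins bind ICAM-1, and LFA-1 also binds ICAM-2. VCAM-1 is bound by the integrin that holds the Itga4 chain. ICAM-2 is present on resting endothelium, whereas Sele, Selp, Icam1 and Vcam1 are known in mouse endothelium as genes that inflammatory cytokines induce. In the lung, alveolar type 1 cells carry ICAM-1 too, and most neutrophils leave the blood from capillaries.

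Depth, found from the step in which the FPKM values move, was 15.2 to 19.2 M reads a library. LPS replicate 2 was unlike the rest: across all genes on the log2(FPKM + 1) scale it correlated with no library above 0.955, and each of the other 8 reached at least 0.984 with another. The labels call the mice female, but all 9 libraries held the Y-linked transcript Ddx3y at 15.4 to 31.9 FPKM and Xist, which silences 1 X chromosome in females, at no more than 0.0895 FPKM. Endothelial markers were plentiful (10 genes, summed 452 to 1397 FPKM a library), as were markers of alveolar type 1 cells (5 genes, summed 676 to 1605 FPKM), which a lung library should hold. Total RNA of a tissue cannot tell more cells of a type from more RNA per cell.

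After LPS the leukocyte side of the set was higher in every library, and the endothelial side was uneven. Itgam rose 9.67-fold in mean FPKM and Selplg 3.61-fold, and these were the 2 of 9 genes past an adjusted p of 0.05 (limma on log2(FPKM + 1), Benjamini-Hochberg adjustment over all genes tested). Of all 16227 genes tested 3.78% were called, 1.23% higher and 2.55% lower. An unadjusted p under 0.05 was reached by 6 of the 9 genes and by 29.9% of all genes. Itgb2 and Itgal had mean ratios of 6.20 and 6.10, with adjusted p = 0.0654 and 0.0545. For 6 of 9 genes all 3 LPS libraries lay above all 3 controls (Selp, Selplg, Icam1, Itgam, Itgal and Itgb2), and 13.8% of all genes tested did so, while 23.8% lay wholly lower and 0 of the 9 did. The median log2 difference of the 9 genes was 1.19 and that of all genes tested was -0.11. That median of all genes moved to 0.01 with median-ratio scaling of the libraries, to -0.03 with quantile normalization and to 0.04 with equal FPKM totals. The differences thus stand against a median of all genes that depends on the scaling by up to 0.15. Single genes moved by unlike amounts. With equal totals the log2 difference went from 1.12 to 1.32 for Icam1, from 2.11 to 2.30 for Itgb2 and from 1.0 to 1.09 for Sele. The calls over all genes were 200 higher and 413 lower, and they were 150 and 179, 246 and 368, and 204 and 188 under those 3 scalings. Under each of these scalings 2 of 9 genes were called. Both calls were lost without any 1 of the 3 controls, and without LPS plus PD replicate 1 or 3 (0 of 9 each), while 1 was left without LPS plus PD replicate 2, 3 genes were called without LPS replicate 1 and 4 without LPS replicate 2. Over all genes the fits without LPS replicate 1 and without LPS replicate 2 gave 110 and 605 calls.

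**Figure D1:**
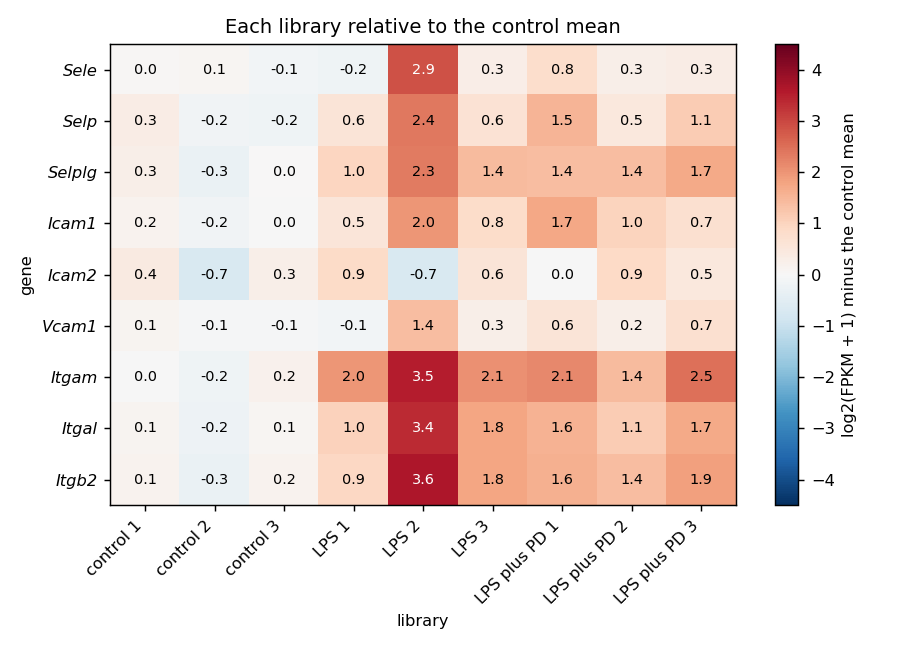
Colour and number give log2(FPKM + 1) of each gene (vertical axis) in each library (horizontal axis) minus the mean of the 3 controls. LPS replicate 2 is the highest library for 8 of the 9 genes, up to 3.63 for Itgb2, and the lowest for Icam2 at -0.70.

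LPS replicate 2 carried much of the size. It held 89.6% of the summed Sele FPKM of the 3 LPS libraries, 72.4% of Selp, 70.4% of Itgb2, 66.1% of Itgal, 60.4% of Itgam, 57.0% of Vcam1, 55.6% of Icam1 and 52.9% of Selplg. For Icam2 the share was 15.6%. Without this library the log2 differences from control were 2.03 for Itgam, 1.21 for Selplg, 1.41 for Itgal and 1.35 for Itgb2, and all 4 passed (adjusted p = 0.0139, 0.0276, 0.0315 and 0.0393 in limma). Of all 16227 genes tested 605 were called in that setting, 305 higher and 300 lower. The same setting gave 0.68 for Icam1, 0.60 for Selp, 0.07 for Vcam1 and 0.06 for Sele, with adjusted p = 0.176, 0.247, 0.823 and 0.89.

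**Figure D2:**
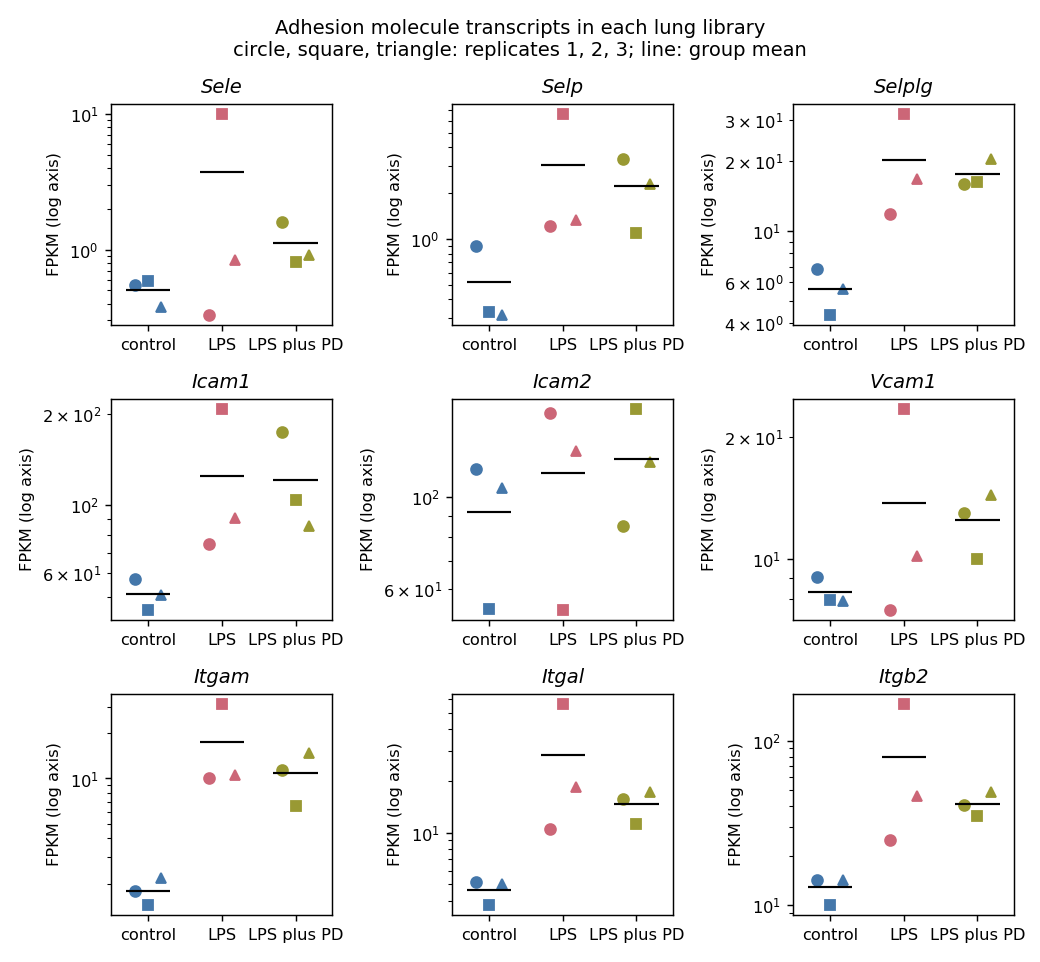
Each panel shows 1 gene, with FPKM on a log axis against the 3 groups. Points are single libraries and lines are group means. All 3 LPS and all 3 LPS plus PD libraries lie above the controls for Selp, Selplg, Icam1, Itgam, Itgal and Itgb2.

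Sele encodes E-selectin, which endothelium makes mainly when activated and which slows rolling leukocytes (ENSMUSG00000026582, chromosome 1, 164048234 to 164057677, plus strand, GRCm38). Its level was 0.551, 0.59 and 0.378 FPKM in control replicates 1, 2 and 3. It was 0.329, 10.0 and 0.841 FPKM in LPS, and 1.61, 0.815 and 0.912 FPKM in LPS plus PD, in the same order. LPS replicate 1 lay below all controls and LPS replicate 2 far above every other library, 6.25 times the next highest, so the LPS and control groups overlapped. All 3 LPS plus PD libraries lay above the controls. At these depths and for the longest annotated transcript (2912 bases) the controls correspond to about 27, 27 and 19 fragments and LPS replicate 2 to about 445. The log2 difference of LPS from control was 1.0 ± 0.66 (SE, adjusted p = 0.325), and that of LPS plus PD from control 0.47 ± 0.66 (adjusted p = 0.725). Without LPS replicate 2, which enters only the shared estimate of spread, the latter had adjusted p = 0.153.

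Selp encodes P-selectin, stored in granules of endothelial cells and platelets and moved to the surface within minutes (ENSMUSG00000026580, chromosome 1, 164115264 to 164150026, plus strand). Its level was 0.901, 0.332 and 0.315 FPKM in the controls, 1.22, 6.67 and 1.32 FPKM in the LPS libraries, and 3.33, 1.09 and 2.29 FPKM in the LPS plus PD libraries, each in the order of the replicates. Both LPS-treated groups lay wholly above the controls and overlapped each other. The controls correspond to about 52, 18 and 19 fragments. The log2 difference from control was 1.19 ± 0.47 in LPS (adjusted p = 0.137) and 1.05 ± 0.47 in LPS plus PD (adjusted p = 0.267), the latter with adjusted p = 0.0454 without LPS replicate 2. Platelets and megakaryocytes are the other source of this transcript. Their 8 markers summed to 81.3 to 110.5 FPKM in control, 29.0 to 92.4 FPKM in LPS and 38.7 to 91.9 FPKM in LPS plus PD, with 0 of 8 called in either comparison with control and none at 0 in a library. The median log2 difference of these markers was -0.70 in LPS (0 of 8 positive) and -0.58 in LPS plus PD (1 of 8 positive). That of all genes was -0.11 and -0.07. Wholly below the controls lay 1 of 8 in LPS, beside 23.8% of all genes, and 4 of 8 in LPS plus PD, beside 20.7%. The 3 markers of venous endothelium, where both selectins are mainly made, summed to 37.5 to 47.6, 25.4 to 64.4 and 39.97 to 64.5 FPKM in the 3 groups, mostly from Vwf. Ackr1, the chemokine-binding receptor of venules, was at 0.549, 1.04 and 0.165 FPKM in the controls, 0.597, 4.21 and 1.04 FPKM in LPS and 2.75, 0.952 and 3.26 FPKM in LPS plus PD. Like Selp it was highest in LPS replicate 2, the library with the lowest sum. Nr2f2, the venous identity factor, was at 11.6 to 13.5 FPKM in the controls and at 6.55 to 11.5 FPKM in LPS, without overlap (neither was called). Whether platelet or venous cell number plays a part in the selectin values was not tested.

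The promoters of Sele, Selp and Icam1 are shown because NF-kB sites are the known route by which cytokines induce these genes. LPS replicate 2 was the highest library for them, as it was for every gene of the set but Icam2. Of the 9 genes 4 were found in the RefSeq promoter table (GRCm38.p6), Icam1, Sele, Selp and Itgam, and the 250 bases before each start were searched on both strands for 4 patterns. They were GGNNNTTCC and a narrower form of it with a G before it and a T for its last N, which both resemble NF-kB sites (every match of the narrower form holds a match of the first), GAGGAA, which resembles a site of the myeloid factor PU.1 and can overlap the end of the first pattern, and TATAAA. Capitals mark every match, and each line is the gene's own strand, 5′ to 3′. The Icam1 window is chr9:21015690-21015939 (plus strand), and the last 150 bases are given for Sele, chr1:164048084-164048233, and for Selp, chr1:164115114-164115263, both on the plus strand.
Icam1: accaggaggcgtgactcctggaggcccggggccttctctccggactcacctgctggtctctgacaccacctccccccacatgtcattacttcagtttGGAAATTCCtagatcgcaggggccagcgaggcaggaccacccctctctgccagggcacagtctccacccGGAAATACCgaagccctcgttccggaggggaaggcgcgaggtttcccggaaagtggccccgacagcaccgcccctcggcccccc
Sele: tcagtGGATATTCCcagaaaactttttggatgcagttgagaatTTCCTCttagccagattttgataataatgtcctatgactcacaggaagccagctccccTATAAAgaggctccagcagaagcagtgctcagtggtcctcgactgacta
Selp: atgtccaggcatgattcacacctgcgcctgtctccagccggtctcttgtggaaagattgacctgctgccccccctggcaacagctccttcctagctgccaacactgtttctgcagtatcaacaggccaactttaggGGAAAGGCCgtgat
The first pattern occurred in Icam1 at -153 to -145 (the same positions match on both strands) and at -84 to -76, in Sele at -145 to -137 and in Selp at -14 to -6, counted from the base before the start as -1. It was present in 15.7% of the 250-base windows of all 32851 promoters in the table. Sele also held TATAAA at -49 to -44, a pattern present in 12.4% of the windows, and the reverse of GAGGAA at -107 to -102. The narrower form was found in 0 of the 4 windows and in 1.41% of all of them. A match is a description of the letters and not a shown binding site.

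Icam1 encodes the main endothelial ligand of both integrins (ENSMUSG00000037405, chromosome 9, 21015985 to 21028817, plus strand), and the deposited gene starts 3′ of the RefSeq start used above. Its level was 57.6, 45.5 and 50.7 FPKM in the controls, 75.0, 207.6 and 91.0 FPKM in the LPS libraries and 173.6, 104.4 and 85.3 FPKM in the LPS plus PD libraries. The controls were the 3 lowest libraries, and the treated groups overlapped. LPS plus PD replicate 1 was close to LPS replicate 2, which was 1.2 times higher. The mean was 51.2 ± 6.08 FPKM in control, 124.5 ± 72.4 in LPS and 121.1 ± 46.4 in LPS plus PD (SD, n = 3). The log2 difference from control was 1.12 ± 0.39 in LPS (adjusted p = 0.106) and 1.17 ± 0.39 in LPS plus PD (adjusted p = 0.164), the latter with adjusted p = 0.0269 without LPS replicate 2. Markers of alveolar type 1 cells, which also make ICAM-1, summed to 771.7 to 1285 FPKM in control, 676 to 1587 in LPS and 1431 to 1605 in LPS plus PD, with 1 of 5 called higher in LPS and 0 of 5 in LPS plus PD. LPS replicate 2, the highest library for Icam1, was the lowest of the 9 for this sum.

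Vcam1 encodes the ligand of the Itga4 integrin, through which monocytes and lymphocytes bind endothelium (ENSMUSG00000027962, chromosome 3, 116109949 to 116129688, minus strand). Its level was 9.02, 7.95 and 7.88 FPKM in the controls, 7.502, 23.5 and 10.2 FPKM in the LPS libraries and 12.97, 10.0 and 14.4 FPKM in the LPS plus PD libraries. LPS replicate 1 was the lowest of all 9 libraries, so LPS and control overlapped, whereas the 3 LPS plus PD libraries lay above all controls. The log2 difference from control was 0.52 ± 0.34 in LPS (adjusted p = 0.323) and 0.53 ± 0.34 in LPS plus PD (adjusted p = 0.425). Itga4 itself, on the leukocyte side, was at 1.65, 0.774 and 1.48 FPKM in the controls, 4.03, 23.0 and 3.25 FPKM in LPS and 2.78, 3.33 and 2.98 FPKM in LPS plus PD. Its log2 difference of 1.82 in LPS had adjusted p = 0.0843, and it is named here after its values were seen.

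Icam2, the ligand of resting endothelium (ENSMUSG00000001029, chromosome 11, 106377656 to 106388075, minus strand), was the exception in the set. Its level was 116.8, 53.8 and 105.4 FPKM in the controls, 159.7, 53.4 and 129.5 FPKM in LPS and 85.2, 163.8 and 121.7 FPKM in LPS plus PD. The groups overlapped in every comparison, and the lowest libraries were control replicate 2 and LPS replicate 2. These 2 libraries were also the lowest for the endothelial markers, whose sums were 573 and 452 FPKM there and 1001 to 1397 FPKM in the other 7. None of the 10 endothelial markers was called in any comparison and none was at 0 in a library. The part of endothelial content in the Icam2 values was not tested. The log2 difference from control was 0.24 ± 0.45 in LPS (adjusted p = 0.731) and 0.45 ± 0.45 in LPS plus PD (adjusted p = 0.619). As FPKM is per length, Icam1 and Icam2 can be compared within a library: Icam1 stood at 0.493, 0.845 and 0.481 of the Icam2 level in the controls, at 0.469, 3.89 and 0.703 in LPS and at 2.04, 0.637 and 0.701 in LPS plus PD. Icam1 exceeded Icam2 in LPS replicate 2 and LPS plus PD replicate 1 and in none of the other 7 libraries. The groups overlapped for this ratio (exact permutation test, two-sided p = 0.7 for LPS and p = 0.3 for LPS plus PD against control, adjusted p = 0.91 and 0.66 over 33 tests of 11 ratios).

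**Figure D3:**
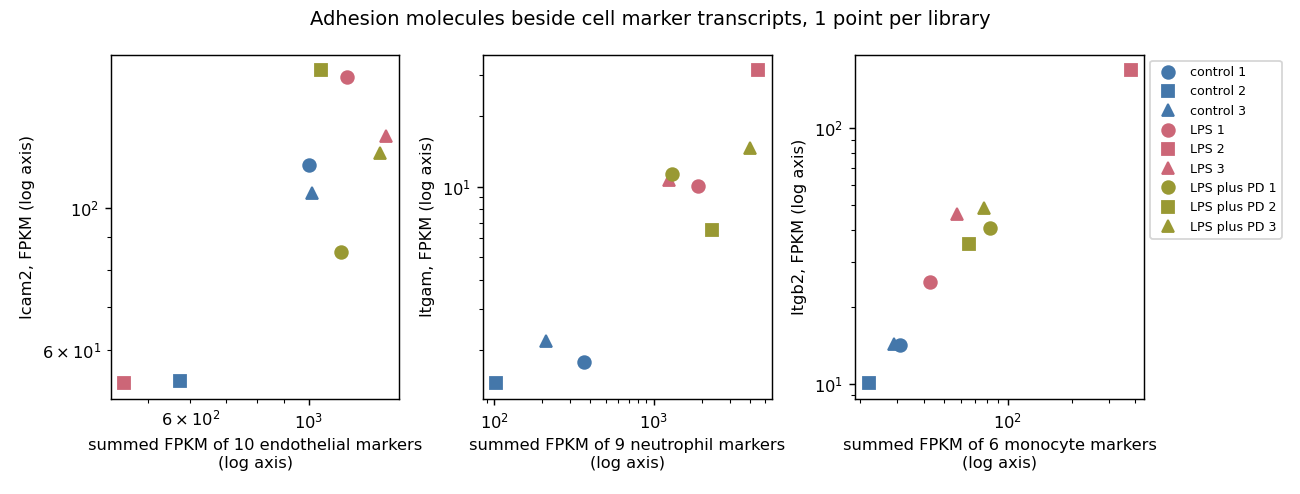
Each point is 1 library. The vertical axes give FPKM of Icam2, Itgam and Itgb2, and the horizontal axes the summed FPKM of endothelial, neutrophil and monocyte markers, all on log axes. Control replicate 2 and LPS replicate 2 are lowest on both axes of the Icam2 panel, and LPS replicate 2 is the highest point for Itgam and Itgb2.

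Selplg encodes the glycoprotein by which leukocytes bind the selectins (ENSMUSG00000048163, chromosome 5, 113818536 to 113832644, minus strand). Its level was 6.85, 4.34 and 5.59 FPKM in the controls, 11.8, 32.0 and 16.7 FPKM in LPS and 16.0, 16.2 and 20.4 FPKM in LPS plus PD. The controls lay below all treated libraries, and the LPS plus PD libraries lay within the range of the LPS libraries. Its rise in LPS had a log2 difference of 1.59 ± 0.32 (adjusted p = 0.0419), and in LPS plus PD the difference was 1.5 ± 0.32 (adjusted p = 0.0701), or adjusted p = 0.0038 without LPS replicate 2. Leaving out single libraries moved the LPS value between 1.21 and 1.89 and kept its call in 3 of 9 fits.

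Itgam encodes the alpha chain of Mac-1, the integrin and complement receptor of myeloid cells (ENSMUSG00000030786, chromosome 7, 128062640 to 128118491, plus strand). It showed the clearest separation in the set: 1.77, 1.44 and 2.18 FPKM in the controls, 10.1, 31.5 and 10.6 FPKM in LPS and 11.3, 6.55 and 14.7 FPKM in LPS plus PD. The lowest treated library was LPS plus PD replicate 2, well above the highest control. Itgam rose in LPS by 2.53 ± 0.42 on the log2 scale (adjusted p = 0.0304), and in LPS plus PD its difference was 2.03 ± 0.42 (adjusted p = 0.0684), or adjusted p = 0.00352 without LPS replicate 2. The LPS value lay between 2.03 and 2.8 when single libraries were left out, with the call kept in 4 of 9 fits. A second identifier with this symbol (ENSMUSG00000108596) covers the same stretch of the chromosome and held at most 0.0998 FPKM, so few reads can have been assigned to it.

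The 150 bases before the RefSeq start of Itgam, chr7:128062490-128062639 (plus strand), are shown because Itgam had the largest log2 difference of the 9 genes in LPS and myeloid promoters are known to use PU.1. Capitals mark GAGGAA or its reverse.
Itgam: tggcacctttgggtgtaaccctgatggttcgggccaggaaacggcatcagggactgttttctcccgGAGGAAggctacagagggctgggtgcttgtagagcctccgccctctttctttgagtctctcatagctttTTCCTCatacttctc
The pattern occurred at -84 to -79 and, reversed, at -15 to -10. In the 250-base windows of all promoters 23.3% held it on either strand. GGNNNTTCC and TATAAA had no match in the Itgam window.

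Itgb2 encodes the beta 2 chain shared by LFA-1 and Mac-1, whose loss causes leukocyte adhesion deficiency in humans (ENSMUSG00000000290, chromosome 10, 77530252 to 77565708, plus strand). Its level was 14.2, 10.1 and 14.3 FPKM in the controls, 24.9, 168.4 and 45.9 FPKM in LPS and 40.6, 35.0 and 48.8 FPKM in LPS plus PD. Itgal, the alpha chain of LFA-1 (ENSMUSG00000030830, chromosome 7, 127296260 to 127335138, plus strand), was at 5.13, 3.79 and 5.04 FPKM in the controls, 10.4, 56.4 and 18.4 FPKM in LPS and 15.7, 11.3 and 17.2 FPKM in LPS plus PD. Both genes separated all treated libraries from the controls, and LPS replicate 2 stood 3.45 and 3.06 times above the next highest library. The log2 difference in LPS was 2.11 ± 0.56 for Itgb2 and 2.06 ± 0.49 for Itgal, neither past the threshold. In LPS plus PD it was 1.62 ± 0.56 (adjusted p = 0.181) and 1.46 ± 0.49 (adjusted p = 0.169). Without LPS replicate 2 these last 2 had adjusted p = 0.00767 and 0.00969.

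The alpha chains that pair with beta 2 differed in their proportions. Beside Itgal and Itgam they are the products of Itgax, typical of dendritic cells and alveolar macrophages, and Itgad. Itgam made up 17.2%, 16.1% and 19.3% of their summed FPKM in the controls, 37.6%, 26.4% and 28.7% in LPS and 31.9%, 26.8% and 38.6% in LPS plus PD. All treated libraries lay above all controls, and these are the smallest p-values that 3 against 3 libraries allow (exact permutation test, two-sided p = 0.1 for each group against control, adjusted p = 0.33). Itgax made up 32.2%, 41.1% and 36.2% in the controls, 23.3%, 26.3% and 21.3% in LPS and 23.9%, 27.1% and 15.9% in LPS plus PD, also without overlap (same p-values). This is a lower share and not a lower level. Itgax itself was at 3.31, 3.69 and 4.09 FPKM in the controls and 6.22, 31.5 and 7.89 FPKM in LPS. In LPS plus PD it was at 8.48, 6.64 and 6.04 FPKM, so every treated library lay above every control. Itgal held 39.0% to 49.9% in all 9 libraries, with overlap between all groups. The level of Itgb2 per summed alpha chains stayed between 0.934 and 1.43 in every library, LPS replicate 2 included (1.41), and the groups overlapped.

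**Figure D4:**
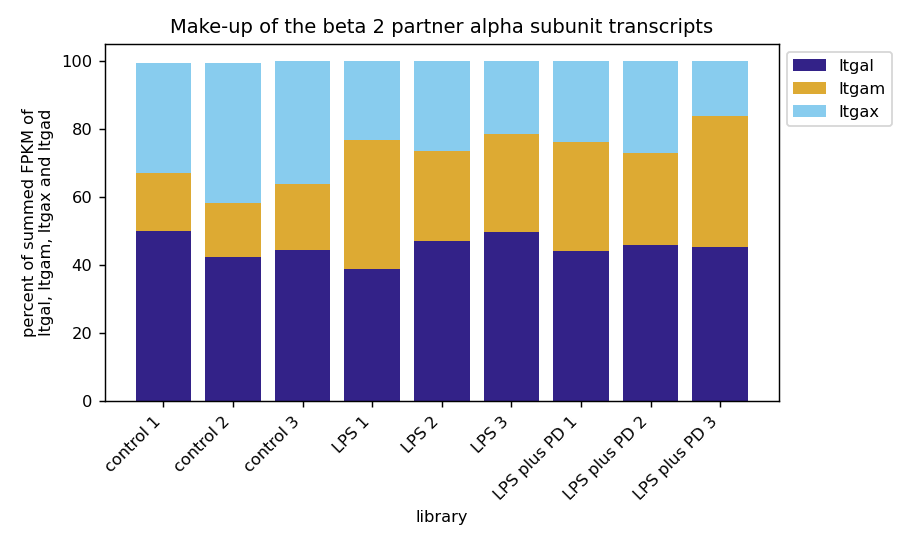
Bars give the percent of the summed FPKM of Itgal, Itgam, Itgax and Itgad held by each of the first 3 genes in each library; Itgad makes up the small remainder. The Itgam part is 16.1% to 19.3% in the controls and 26.4% to 38.6% in the 6 treated libraries.

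Of the leukocyte marker lists only that of neutrophils held calls. Ptprc, which encodes the CD45 antigen of all leukocytes, was at 4.70, 2.52 and 4.88 FPKM in the controls, 8.45, 47.2 and 10.6 FPKM in LPS and 10.1, 7.75 and 10.6 FPKM in LPS plus PD. Relative to Ptprc, Itgam stood at 0.377, 0.573 and 0.447 in the controls, 1.19, 0.667 and 0.999 in LPS and 1.12, 0.845 and 1.39 in LPS plus PD, without overlap between treated and control (exact permutation test, two-sided p = 0.1 and adjusted p = 0.33 for each treated group). Selplg per Ptprc did not follow it, at 1.46, 1.72 and 1.15 in the controls, 1.40, 0.678 and 1.57 in LPS and 1.58, 2.10 and 1.93 in LPS plus PD. In LPS this Selplg ratio overlapped with control, with the lower mean in LPS (exact permutation test, two-sided p = 0.6, adjusted p = 0.9). In LPS plus PD it overlapped with control but lay wholly above LPS (exact permutation test, two-sided p = 0.1, adjusted p = 0.33). Itgb2 per Ptprc was 2.93 to 3.99 in control and 2.95 to 4.32 in LPS, with overlap. In LPS plus PD it was 4.02 to 4.62, wholly above control (exact permutation test, two-sided p = 0.1, adjusted p = 0.33). Itgal per Ptprc overlapped between LPS and control, at 1.03 to 1.503 in the controls and 1.19 to 1.73 in LPS. The 9 neutrophil markers summed to 103.6 to 368 FPKM in control, 1240 to 4539 FPKM in LPS and 1305 to 3992 FPKM in LPS plus PD, with 7 of 9 called higher in LPS and 3 of 9 in LPS plus PD. Monocyte markers summed to 22.0 to 30.8, 43.1 to 379.8 and 65.3 to 82.2 FPKM, with 0 of 6 called in either, and the top of the LPS range was LPS replicate 2. T and NK cell markers summed to 17.8 to 44.8, 33.4 to 132.1 and 51.5 to 137.3 FPKM, and B cell markers to 25.0 to 45.7, 20.4 to 50.4 and 12.8 to 27.4 FPKM, with 0 of 8 and 0 of 5 called. Gzma, a granzyme gene, had means of 11.4, 57.9 and 70.3 FPKM, where the T and NK cell sum had means of 32.6, 96.7 and 102.4 FPKM. Other genes of that list also had higher means in the treated groups, with 5.04, 13.2 and 13.7 FPKM for Nkg7. Ncr1 had 2.69, 9.9 and 6.83 FPKM. Klrd1 had 3.24 FPKM in control and 6.27 FPKM in LPS, with LPS plus PD in between. Nkg7, Ncr1 and Klrd1 overlapped between LPS and control. In LPS plus PD, Nkg7 and Ncr1 lay wholly above control and Klrd1 overlapped. The T cell genes Cd3d (2.38, 1.83 and 1.54 FPKM) and Cd2 (2.99, 2.51 and 2.63 FPKM) had their highest means in control. Cd3e (0.995, 1.08 and 0.593 FPKM) and Lck (3.94, 4.03 and 2.98 FPKM) had theirs in LPS. Cd3d, Cd2 and Lck overlapped between all groups. Cd3e overlapped between each treated group and control, and was wholly lower in LPS plus PD than in LPS. The 4 pan-leukocyte markers, Ptprc among them, summed to 57.0 to 82.1, 111.1 to 431 and 122.5 to 182.6 FPKM, also with none called in either comparison. Markers of alveolar macrophages, which carry Itgax and Itgal, summed to 34.8 to 44.8, 37.1 to 41.8 and 44.7 to 87.3 FPKM, with 0 of 6 called. That sum joins unlike genes: Marco, a scavenger receptor, had means of 7.98, 21.9 and 32.6 FPKM (adjusted p = 0.0673 in LPS, limma), while the fatty acid binding protein gene Fabp4 had 14.3, 4.89 and 9.46 FPKM and the lipid droplet gene Cidec 6.67, 1.45 and 3.25 FPKM. Fabp4 and Cidec overlapped between LPS and control, with control replicate 3 at 6.20 and 1.03 FPKM. The part of cell number in the rise of Itgam and Selplg was not tested.

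Adding PD to LPS gave no call. None of the 9 genes passed in limma (lowest adjusted p = 0.866), none had an unadjusted p under 0.05, and over all 16227 genes 0 were called (0%), with 653 (4.02%) at an unadjusted p under 0.05. The groups overlapped for each of the 9 genes, while 3.99% of all genes tested lay wholly higher and 4.02% wholly lower in LPS plus PD. The log2 differences ran from -0.59 for Itgal to 0.20 for Icam2, with a median of -0.14 beside 0.03 for all genes. The 95% confidence intervals were wide: -1.71 to 0.53 for Itgal, -1.77 to 0.79 for Itgb2, -1.46 to 0.45 for Itgam, -2.02 to 0.97 for Sele, -1.21 to 0.94 for Selp, -0.80 to 0.63 for Selplg, -0.84 to 0.92 for Icam1, -0.76 to 0.78 for Vcam1 and -0.82 to 1.23 for Icam2. They therefore leave room for changes in either direction. The direction depended on single libraries. Without LPS replicate 2, Sele, Selp, Selplg, Itgam, Itgb2 and Itgal all turned to a positive sign, at 0.41, 0.45, 0.29, 0.00152, 0.27 and 0.0571, and Icam2 turned to -0.27. Without LPS plus PD replicate 2, Selp turned to 0.15 and Icam2 to -0.0226. The signs of Icam1 and Vcam1 turned negative without LPS replicate 1, LPS replicate 3 or LPS plus PD replicate 1, and that of Vcam1 also without LPS plus PD replicate 3. The highest LPS plus PD library was below LPS replicate 2 for 8 of the 9 genes, all but Icam2.

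Against control the LPS plus PD lungs had 0 of 9 genes called (lowest adjusted p = 0.0684, for Itgam), where 0.789% of all genes tested were called, 0.376% higher and 0.413% lower. An unadjusted p under 0.05 was reached by 5 of 9 genes and by 19.2% of all genes. All 3 LPS plus PD libraries nonetheless lay above all 3 controls for 8 of the 9 genes, all but Icam2, and 13.3% of all genes did so, while 20.7% lay wholly lower. The median log2 difference was 1.17, beside -0.07 for all genes. Means of FPKM were 6.03 times the control mean for Itgam, 4.34 times for Selp, 3.23 times for Itgb2, 3.16 times for Itgal and 3.13 times for Selplg, and 2.36, 2.19, 1.51 and 1.34 times for Icam1, Sele, Vcam1 and Icam2. The count of calls depended on whether LPS replicate 2 entered the shared estimate of spread: 6 of 9 passed without it (Icam1, Selp, Selplg, Itgam, Itgb2 and Itgal), and 5 of 9, the same without Selp, in a fit of only the control and LPS plus PD libraries. Over all genes these 2 settings gave 1613 and 1193 calls in place of 128. The comparisons of each treated group with control share the 3 control libraries, so their values are given side by side and not as separate support.

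**Figure D5:**
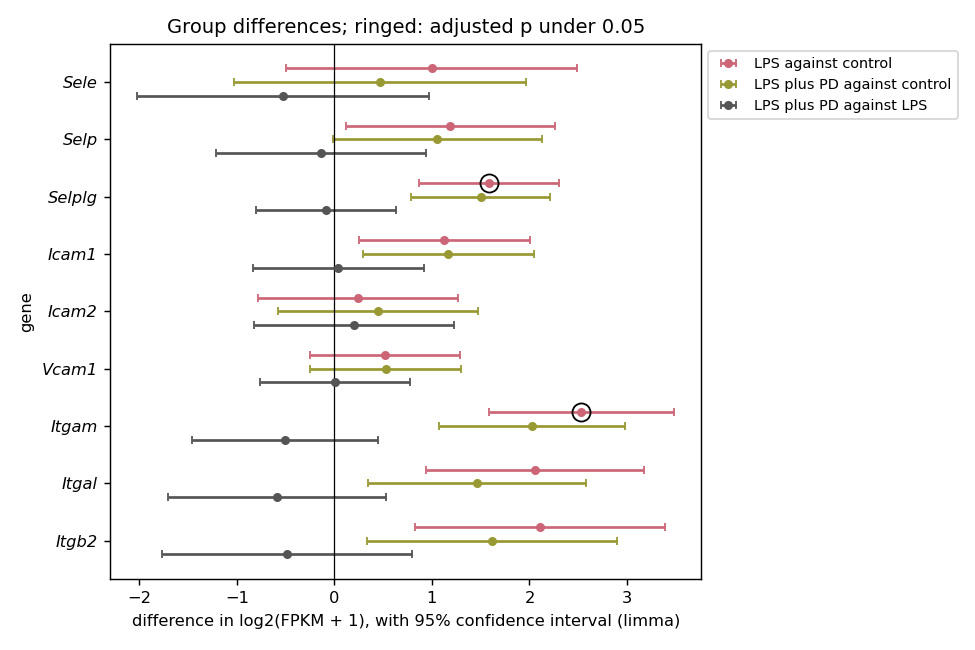
Points give the difference in log2(FPKM + 1) for each gene and comparison, and bars the 95% confidence interval of the limma fit. Rings mark the 2 calls, Selplg and Itgam in LPS against control, and every interval for LPS plus PD against LPS includes 0.

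Other genes of leukocyte adhesion were taken from 3 lists with 38 genes, of which 32 were tested. Among 11 tested selectins, selectin ligands and their enzymes 1 rose in LPS, Spn, the leukocyte surface sialophorin CD43, and 0 fell. It was at 2.65, 1.70 and 2.54 FPKM in the controls, 6.13, 10.5 and 9.59 FPKM in LPS and 6.08, 4.48 and 6.69 FPKM in LPS plus PD, with a log2 difference in LPS of 1.54 ± 0.22 (adjusted p = 0.0276). The call was kept in 6 of the 9 fits that left out a library and lost without control replicate 1, control replicate 2 or LPS plus PD replicate 1 (adjusted p = 0.071, 0.12 and 0.0539). It was lost too without a filter (adjusted p = 0.055), with only the 6 libraries compared (adjusted p = 0.0916) and with a block for the replicate number. The list had a median log2 difference of 0.37 in LPS and 0.32 in LPS plus PD, where 0 of 11 passed and the smallest p belonged to Spn (1.03, adjusted p = 0.0744) and Podxl, an endothelial sialomucin (1.2, adjusted p = 0.159). Among 11 other integrins and integrin activators 1 rose in LPS, Rap1b, a small GTPase that switches integrins on. Rap1b was at 110.7, 82.1 and 111.0 FPKM in the controls, 178.8, 241 and 162.5 FPKM in LPS and 131.7, 145.6 and 146.7 FPKM in LPS plus PD. All LPS libraries lay above all LPS plus PD libraries, and those above all controls. Its log2 difference was 0.93 ± 0.20 in LPS (adjusted p = 0.0441), and it was called in 1 of the 9 fits that left out a library. The call was lost with median-ratio scaling (adjusted p = 0.0507), without a filter, with only the 6 libraries compared and with a block for the replicate number. Between LPS plus PD and LPS the log2 difference of Rap1b was -0.44 ± 0.20 (adjusted p = 0.866). The list's medians were 0.58 in LPS, 0.49 in LPS plus PD with 0 of 11 called (Tln1, the integrin adaptor talin, at 0.50, adjusted p = 0.172), and -0.42 between LPS plus PD and LPS, where Itga4 had -0.99 (adjusted p = 0.866).

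Junctional and immunoglobulin-like molecules gave no call. Of 10 tested 0 passed in any comparison, with medians of 0.18 in LPS, 0.27 in LPS plus PD and 0.19 between LPS plus PD and LPS. In LPS the smallest p belonged to Cd47, a ligand that leukocytes need to cross endothelium, at 0.61 (adjusted p = 0.0831), and Jam3, a junctional molecule, at -0.38 (adjusted p = 0.201). In LPS plus PD against control it belonged to Cd47 at 0.52 (adjusted p = 0.19) and Pecam1, the endothelial junction protein CD31, at 0.79 (adjusted p = 0.189). Pecam1 was at 109.3, 57.3 and 108.2 FPKM in the control libraries and at 165.1, 134.9 and 160.1 FPKM in LPS plus PD, without overlap, where 13.3% of all genes tested lay wholly higher. Between LPS plus PD and LPS F11r, a junctional molecule of epithelium and endothelium, had 0.24 and Cd99l2, which takes part in transmigration, 0.34 (both adjusted p = 0.866), and in the selectin list Cd44 and Spn had -0.44 and -0.51 (both adjusted p = 0.866).

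Across the 9 libraries the 8 genes other than Icam2 varied together. Their 28 pairs had Pearson correlations of log2(FPKM + 1) from 0.694 to 0.996, and from 0.521 to 0.99 over the 8 libraries without LPS replicate 2. Icam2 correlated with them at -0.602 to 0.0585 over 9 libraries and at -0.183 to 0.589 over 8. The libraries share their groups, so these values describe the pattern and test nothing. The closest pair was Itgb2 and Itgal (0.996 over 9 libraries, 0.99 over 8). Among all genes whose mean FPKM was 5 or more, the nearest to Itgb2 over 9 libraries was Rac2 (0.996), a small GTPase of blood cells, followed by Itgal and Laptm5 (0.994), a lysosomal protein of leukocytes, and the same 3 genes came first over 8 libraries. Itgal was followed by Itgb2, Treml4 (0.993) and Myo1f (0.992), and Itgam by Emilin2 (0.991), Fgr (0.99), a kinase of myeloid cells, and Pirb (0.987), an inhibitory receptor of myeloid cells. Selplg was nearest to Tyrobp (0.991), a signalling adaptor of myeloid and NK cells, AB124611 (0.99) and Trem3 (0.986). Selp was nearest to Neurl3 in both sets of libraries (0.996 and 0.991), then to Cndp2 (0.984) and Ifnar1 (0.978), a chain of the interferon receptor. Icam1 was nearest to Shisa5 in both (0.981 and 0.981), then to Vps33a (0.97) and Plod3 (0.969). Sele was nearest to Abr (0.987), Mfsd1 (0.985) and Dck (0.979). Vcam1 was nearest to the monocyte chemokine gene Ccl7 (0.974), Arpc1b (0.969) and Aif1 (0.969), and Icam2 to the endothelial water channel gene Aqp1 (0.96), Synj2bp (0.959) and Rassf8 (0.958). For Sele, Vcam1, Icam2 and Itgam none of these genes stayed among the nearest 3 without LPS replicate 2.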

How the data were processed

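The deposited values were FPKM per gene and library, which the authors gave as 1 table (32114 genes). The submitters' processing notes name StringTie, HISAT2, FastQC, bcl2fastq and the GRCm38 build. No source used here gives versions, settings, strandedness or how multi-mapped reads were handled, so an overlapping or antisense gene could share reads. Columns were joined to samples by the names that the labels repeat. Depth was found as the value at which the FPKM of genes with 1 exon (GENCODE M21) became whole reads, with 99.0% to 99.4% of the low values within 0.05 of a whole number. It sets the counting error only.

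Tests covered the 16227 genes, all 9 adhesion genes among them, whose FPKM averaged 0.5 or more across libraries, as log2(FPKM + 1), in limma 3.58.1 (R 4.3.3) with 1 mean per group and variances moderated along a trend (prior df 2.83). The pseudocount understates changes of low genes such as Sele and Selp. P-values were adjusted by Benjamini-Hochberg over all genes tested, at a threshold of 0.05. Ratios of genes were tested by exact permutation. The fit was also run on simulated data with the same spread in every library. No library stood apart there, so that run cannot show how LPS replicate 2 affects the calls. The adhesion genes and the lists were chosen with earlier results of these data known. Named were all 9 genes, up to 4 called genes of each list or the pair with the smallest p, and the 3 genes nearest to each. Icam4 and Siglecf, listed by symbol, had no row under that symbol. Alternatives were other pseudocounts, filters, scalings and fits, array weights, a replicate block and leaving out each library. Tables came from pandas 2.3.3 and numpy 2.4.6 under Python 3.11.15, and figures from matplotlib 3.10.9.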

Additional observations from a re-analysis of the deposited data

How the results depend on the processing

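In LPS against control 2 of 9 adhesion genes were called, and 0 without a filter, 0 with only the 6 libraries compared and 4 with array weights; leaving out single libraries gave 0 to 4. All genes called, 613, became 38 without a filter, 270 at a mean FPKM of at least 5, 329 with median-ratio scaling, 392 with equal totals, 9 with only the 6 libraries and 3308 with array weights, and 7 to 1038 without single libraries. Between LPS plus PD and LPS 0 adhesion genes were called in each of the 20 alternatives, and over all genes 1 with median-ratio scaling, 1 with quantile normalization and 2 with array weights. In LPS plus PD against control 5 adhesion genes were called with only the 6 libraries and 6 with array weights, and 0 to 6 without single libraries; all genes called, 128, became 6 without a filter, 1193, 1568 and 2 to 1613. The same replicate numbers did not pair the libraries (correlations of same-numbered deviations -0.183 to 0.193, 1 of 9 pairs over 0.1, 4 of 18 best with their own number). With the replicate block the adhesion genes called in LPS fell to 0 and all genes called to 10, and to 4 in LPS plus PD against control.

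No called log2 difference of an adhesion gene changed sign in any alternative. Signs of uncalled ones did, for which the cause was not tested. In LPS against control Icam2 ran from -0.10 to 0.72 without single libraries, and Vcam1 was -0.00875 with array weights. Between LPS plus PD and LPS, array weights gave -0.42 for Icam2, 0.52 for Sele, 0.54 for Selp, 0.36 for Selplg, 0.0332 for Itgam, 0.44 for Itgb2 and 0.25 for Itgal, and Icam1 was -0.0192 and Vcam1 -0.0511 with median-ratio scaling, Vcam1 -0.00566 with quantile normalization and -0.0118 with equal totals. Without single libraries that comparison ran from -0.25 to 0.48 for Icam1, -0.27 to 0.51 for Icam2, -0.31 to 0.45 for Vcam1, -1.11 to 0.41 for Sele, -0.44 to 0.45 for Selp, -0.39 to 0.29 for Selplg, -0.78 to 0.00152 for Itgam, -1.08 to 0.27 for Itgb2 and -1.11 to 0.0571 for Itgal. Sele and Selp have no value at a mean FPKM of at least 5, since they lie under it. About 16 to 27 fragments of Sele in each control and in LPS replicate 1 limit what could be seen there.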

Other observations

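Itgae, which encodes the alpha chain that keeps T cells and some dendritic cells in epithelium by binding E-cadherin, is named after its values were seen. It was at 0.70, 0.848 and 1.01 FPKM in the controls, 0.771, 0.358 and 1.03 FPKM in LPS and 0.227, 0.438 and 0.512 FPKM in LPS plus PD. The LPS plus PD libraries lay below all controls, as they did for 20.7% of all genes tested. The log2 difference was -0.41 ± 0.18 (limma adjusted p = 0.253), and LPS overlapped with control. The Itgae level is low, with a mean of 0.655 FPKM beside the filter at 0.5. Fermt3, which encodes the integrin activator kindlin-3 of blood cells, separated the controls at 4.97 to 7.86 FPKM from the treated libraries at 9.90 to 32.3 FPKM (log2 difference in LPS 1.26 ± 0.37, adjusted p = 0.0762). Of all genes tested 13.8% lay wholly above control in LPS and 13.3% in LPS plus PD. Glycam1 and Madcam1, ligands made by vessels of lymphoid tissue, were under the filter, at no more than 0.0597 and 0.222 FPKM in any library.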
